A study of Mus musculus with 71 samples.

Results

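Interferon-stimulated genes are the genes that cells switch on when interferon binds its receptors. The 36 genes described here were chosen by symbol from that family. The rule uses no measured value, but earlier results of these data were known when the genes were chosen. All 36 were found among the 25579 genes measured in B cell progenitors and among the 24420 genes measured in early T cell progenitors. The study deleted parts of Pax5, the transcription factor that commits progenitors to the B cell lineage, and asked which genes each part activates or represses. RNA was measured by poly(A) sequencing in C57BL/6 mouse cells sorted ex vivo, as 31 libraries of bone marrow progenitors and 17 libraries of lymphoid progenitors, and the labels give no age and no treatment. Levels are in TPM, a share of all transcripts that corrects for gene length and library size.

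The deleted part of Pax5 is written after D in each genotype. Pax5(+/+) pro-B cells had 5 libraries and every other group of the B lineage had 2. The central deletions, all homozygous, were Pax5(DOP/DOP), which lacks the octapeptide, Pax5(DHD/DHD), which lacks the partial homeodomain, and Pax5(DOP,HD/DOP,HD), which lacks both. The deletions of the C-terminal regulatory domains were carried over a null allele in Pax5(DCRD1/-), Pax5(DCRD2/-) and Pax5(DCRD1,2/-), and on both alleles in Pax5(DCRD1/DCRD1), Pax5(DCRD2/DCRD2) and Pax5(DCRD1,2/DCRD1,2). Pax5-deficient progenitors were Vav-Cre Pax5(fl/fl) cells and came from 2 experiments, of which the second also held Vav-Cre Pax5(fl/+) pro-B cells and Vav-Cre Pax5(Prd/fl) progenitors. Vav-Cre is active in all blood cells from the stem cell stage, so floxed Pax5 was deleted in every blood lineage and not in progenitors alone, and all groups of the second experiment carried it. The T lineage was wild type LMPP (the lymphoid-primed multipotent progenitor of the bone marrow, 2 libraries), the thymic stages DN1, DN2a and DN2b (3 libraries each), DN3a and DN3b (2 each), and Rag2(-/-) DN3a cells (2), which cannot rearrange antigen receptor genes.

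Type I interferon binds the receptor chains Ifnar1 and Ifnar2, the kinases Jak1 and Tyk2 phosphorylate signal transducers such as Stat2, and these join Irf9 in a complex that binds interferon-stimulated response elements in promoters. Type II interferon acts through Ifngr1, Ifngr2, Jak1 and Jak2 on transducers that bind gamma-activated sites. Many of the induced genes are also kept at a low level in the absence of infection, and progenitor cells are known to carry more of some of their products, such as the Ifitm proteins, than differentiated cells.

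The members act at successive steps. Irf1, Irf7, Irf9 and Stat2 carry the signal to DNA. Ifih1, Ddx58 and Dhx58 are helicases of the family that senses viral RNA, and Zbp1 senses Z-form nucleic acids. The effectors that act on RNA or nucleotides are Ifit1, Ifit2 and Ifit3, which bind foreign RNA, the oligoadenylate synthetase family (Oas1a, Oas2, Oas3, Oasl1 and Oasl2), the translation-blocking kinase Eif2ak2, and Cmpk2 and Rsad2, which act on nucleotides. Mx1, Mx2, Gbp2 and Gbp3 are large GTPases, and Ifitm1, Ifitm2 and Ifitm3 are membrane proteins that hinder virus entry. Isg15 is a ubiquitin-like modifier, Usp18 removes it and damps receptor signalling, Trim30a and Dtx3l are ubiquitin ligases, and Parp9 and Parp14 belong to the ADP-ribosyltransferase family. Ifi35, Ifi44, Xaf1 and Rtp4 are induced genes of other kinds.

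Of the 36 genes, 27 had an entry in a table of RefSeq promoter windows of GRCm38.p6, each running from 250 bases before to 50 bases after a transcription start. The core of the interferon-stimulated response element, searched as GAAANNGAAA on both strands, was present for 15 of those 27 genes (55.6%), against 3.99% of 27025 genes with such windows. The gamma-activated site, searched as TTCNNNGAA, was present for 6 of 27 (22.2%), against 9.55% of all genes, and matches of both motifs shared a base in 1 window. The 60-base stretches shown here are the upstream matches of 9 members from the RNA-acting, GTPase, Ifitm and modifier groups, on the strand of the gene, with the matched core in capitals. A match describes the letters and not binding. The stretches of Ifit3 and Ifitm2, and a part of those of Oas1a and Gbp3, lie within the annotated span of the gene, since they precede an inner start.
Isg15, chr4:156200856-156200915, minus strand: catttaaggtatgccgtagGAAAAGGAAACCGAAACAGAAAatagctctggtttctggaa
Ifit1, chr19:34640769-34640828, plus strand: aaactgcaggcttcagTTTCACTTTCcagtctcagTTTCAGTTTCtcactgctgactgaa
Ifit3, chr19:34583365-34583424, plus strand: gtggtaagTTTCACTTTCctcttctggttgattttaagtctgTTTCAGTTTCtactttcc
Oas1a, chr5:120907526-120907585, minus strand: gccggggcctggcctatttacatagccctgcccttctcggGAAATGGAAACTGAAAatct
Oas3, chr5:120777700-120777759, minus strand: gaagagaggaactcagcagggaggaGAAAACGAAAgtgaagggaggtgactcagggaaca
Gbp2, chr3:142620579-142620638, plus strand: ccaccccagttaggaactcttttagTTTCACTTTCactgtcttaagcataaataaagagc
Gbp3, chr3:142559977-142560036, plus strand: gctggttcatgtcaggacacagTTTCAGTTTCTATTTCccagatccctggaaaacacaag
Ifitm2, chr7:140955973-140956032, minus strand: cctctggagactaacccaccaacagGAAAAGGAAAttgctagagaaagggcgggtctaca
Rsad2, chr12:26456538-26456597, minus strand: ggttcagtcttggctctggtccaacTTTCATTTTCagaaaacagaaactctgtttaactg
In Isg15 each of the 3 matches overlaps its neighbour, in Oas1a and Gbp3 2 matches overlap, and in Ifit1 and Ifit3 2 matches stand apart. No match was found in the window of Ifitm1, Irf7, Ifi44, Oasl1 or Oasl2, and Oas2, Mx1 and Zbp1 had no window in the table.

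Many members are neighbours in the genome. On chromosome 7 of GRCm38.p6 Ifitm2 (140954837 to 140959686), Ifitm1 (140967429 to 140969827) and Ifitm3 (141009590 to 141010744) follow each other, and Irf7 begins 252438 bases beyond Ifitm3. Rsad2 and Cmpk2 on chromosome 12 are 12664 bases apart, Oas2 and Oas3 on chromosome 5 are 3211 bases apart, and Dtx3l and Parp9 on chromosome 16 overlap by 558 bases. Members of the Ifitm, Ifit, Oas, Gbp and Trim30 families resemble other genes of their family, so the authors' counting may have divided reads between them, and the values of Dtx3l and Parp9 share a stretch in which strand was not stated to be used.

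Depth recovered from the TPM values was 10018678 to 43784791 reads in the 31 B lineage libraries, with the lowest in replicate 2 of the Pax5-deficient progenitors of the first experiment. The depth of the 17 T lineage libraries is unknown. The labels do not say that replicates came from separate mice, so the p-values measure the spread between these samples, which may be technical. T cell markers summed to at least 15300 TPM in DN3a cells and to at most 302 TPM in any B lineage library. B lineage markers summed to between 13200 and 21000 TPM in pro-B cells and to between 6660 and 8420 TPM in Pax5-deficient and Pax5(Prd/fl) progenitors. The gene-level value of Pax5 does not separate its deleted parts from the rest and did not check the genotypes. Pax5-deficient, Pax5(Prd/fl), Pax5(DCRD1,2/-) and Pax5(DCRD1,2/DCRD1,2) cells were sorted with another gate than all other B lineage cells, so gate and genotype cannot be told apart in their comparisons with pro-B cells of the standard gate. The Pax5(+/+) replicates 1, 2 and 5, the first Pax5-deficient progenitors and Pax5(DCRD1/DCRD1) cells were read with 50 nucleotides and all other B lineage libraries with 100, and in 11 of 36 members (30.6%) both Pax5(+/+) libraries of 100 nucleotides were above all 3 of 50, against 8.33% of all genes above 1 TPM. Those members were Irf9, Dhx58, Zbp1, Oas1a, Oas3, Oasl1, Ifitm3, Isg15, Usp18, Ifi35 and Rtp4. Read length was therefore a term in the main models of the first experiments that joined both kinds. Pax5(+/+) was the single group with both lengths, so each fold change against it rests on its libraries of the same length. These are the 3 of 50 nucleotides for the first Pax5-deficient progenitors and Pax5(DCRD1/DCRD1) cells, and both of 100 for the other C-terminal deletions. The remaining Pax5(+/+) libraries enter the estimate of the spread alone. The authors cut reads to 50 nucleotides before alignment, so the read length term marks sets of libraries. Read length and any other difference between those sets cannot be told apart.

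In Pax5(+/+) pro-B cells, whose labels name no treatment, the genes were expressed at very different levels. Between 35 and 36 members exceeded 1 TPM in a library, and the median member lay between 19.0 and 36.5 TPM. Ifitm2 was the highest, with 333, 465, 446, 334 and 504 TPM in replicates 1 to 5. Mx1 had the lowest mean, with 2.72, 2.42, 2.22, 2.95 and 0.705 TPM. The membrane protein Ifitm2 was the highest member in each of the 5 libraries, and the GTPase Mx1 the lowest in all but replicate 3, where Ifit3 was lower. Averaged over all 36 members on the log2(TPM + 0.1) scale, Pax5(+/+) libraries spanned 4.07 to 4.92, and Pax5-deficient progenitors of the first experiment lay above all of them at 5.46 and 5.53.

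**Figure D1:**
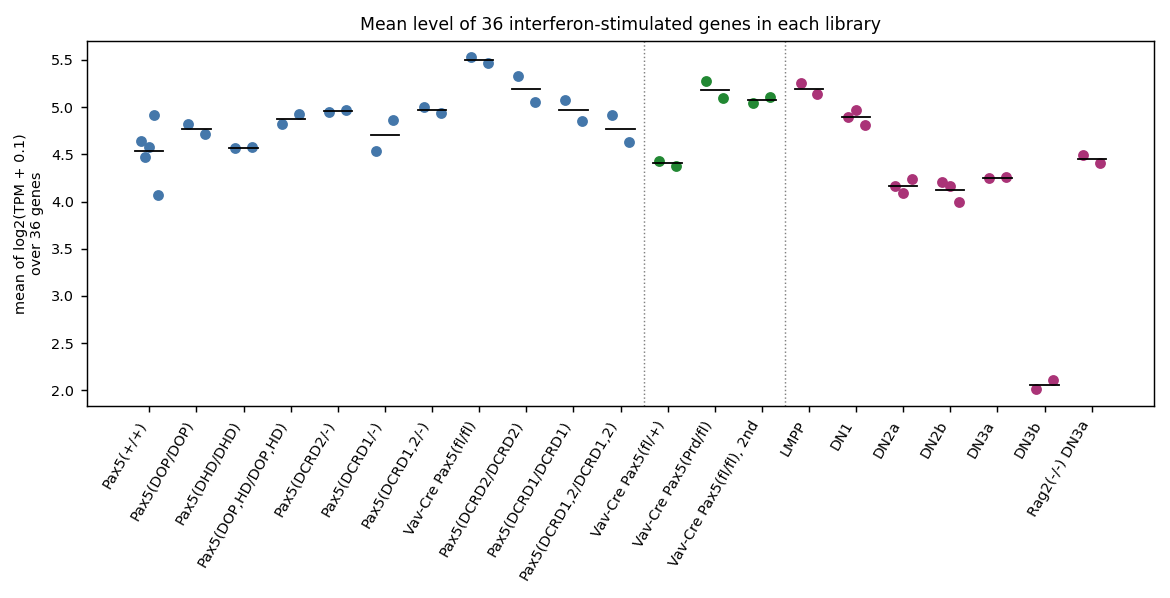
Mean level of the 36 genes in each library, as the mean of log2(TPM + 0.1) on the vertical axis, with a point per library, a bar at the mean of each group and dotted lines between the first B lineage experiments (blue), the second experiment (green) and the T lineage (purple). The Pax5-deficient progenitors lie above the pro-B cells of their own experiment and DN3b cells lie lowest, between 2.01 and 2.11.

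Loss of Pax5 was accompanied by higher levels of most of these genes. In the first experiment 26 of 36 members rose in Vav-Cre Pax5(fl/fl) progenitors against Pax5(+/+) pro-B cells and none fell (limma on log2(TPM + 0.1) with read length as a term, SE standing for the standard error, adjusted p under 0.05 after Benjamini-Hochberg adjustment over all genes), where 17.1% of all genes tested were higher and 14.6% were lower. By edgeR on the recovered reads 27 rose and 0 fell. The median member changed by 0.90 on the log2 scale, a 1.86-fold difference, against 0.01 over all genes. All 4 signalling factors, all 3 Ifitm genes and all 4 genes of the last group rose, as did 6 of 11 RNA or nucleotide effectors, 3 of 4 GTPases, 4 of 6 genes of the modifier group and 2 of 4 sensors. Among the 26, the raw values of Isg15, Oas1a, Xaf1, Usp18 and Ifi35 overlapped between the groups. A call of 13 of the 26 held under all 22 alternatives, for Ifitm1, Ifi44, Mx1, Oas2, Ifitm3, Irf7, Rtp4, Oasl2, Ifih1, Dhx58, Gbp3, Oasl1 and Irf1. With the 3 Pax5(+/+) libraries of the same read length alone 16 members rose, without replicate 1 of the Pax5-deficient progenitors 16, and without replicate 2 17. In bulk samples fewer cells of a type and less RNA per cell cannot be told apart.

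Ifitm1 changed most. It was 6.48, 6.10, 9.32, 7.07 and 7.86 TPM in the Pax5(+/+) replicates and 654 and 422 TPM in Pax5-deficient progenitors. The groups lay far apart, with a log2 fold change of 6.26 (SE 0.28, adjusted p = 9.06e-08). Ifi44, an induced cytoplasmic protein, was 8.91, 8.07, 3.99, 9.53 and 2.20 TPM in Pax5(+/+) and 39.5 and 67.8 TPM in Pax5-deficient cells. It rose by 3.23 (SE 0.59, adjusted p = 0.00169), with no overlap although the Pax5(+/+) values themselves spread widely. Mx1, given above for Pax5(+/+), reached 8.94 and 9.66 TPM, a rise of 2.39 (SE 0.46, adjusted p = 0.00231).

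Oas2, which makes the oligoadenylates that activate an RNA-cutting enzyme, was 4.96, 5.38, 4.09, 6.22 and 3.94 TPM in Pax5(+/+) and 22.3 and 24.6 TPM in Pax5-deficient cells. Its change of 2.29 (SE 0.27, adjusted p = 6.95e-05) far exceeded the spread within either group. Ifitm3 was 119, 98.2, 183, 217 and 127 TPM in Pax5(+/+), where the higher pair came from the libraries of 100 nucleotides, and 543 and 382 TPM in Pax5-deficient cells. With read length as a term it rose by 1.99 (SE 0.17, adjusted p = 5.99e-06). Irf7, the factor that amplifies the type I response, was 41.3, 50.2, 49.7, 54.7 and 30.8 TPM against 150 and 124 TPM, a rise of 1.77 (SE 0.22, adjusted p = 0.000106). Rtp4, a chaperone of membrane receptors, rose from between 28.4 and 64.9 TPM to 98.3 and 109 TPM, and the groups did not overlap.

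Isg15 differed between the Pax5(+/+) libraries of 50 and of 100 nucleotides. It was 51.6, 24.5 and 47.0 TPM in the 3 Pax5(+/+) libraries of 50 nucleotides, 110 and 90.6 TPM in those of 100, and 108 and 87.4 TPM in the Pax5-deficient libraries of 50. It passed the test with read length as a term (log2 fold change 1.31, SE 0.30, adjusted p = 0.00612), although the raw groups overlapped. Under the alternatives its adjusted p ranged from 0.0014 to 0.223 and the call was lost in 2 of 22. Cmpk2, Ifit2, Trim30a, Zbp1 and Rsad2 had changes between -0.53 and -0.07 that did not pass the test. Rsad2 was 15.8, 7.09, 8.76, 21.4 and 6.57 TPM in Pax5(+/+) and 7.51 and 5.17 TPM in Pax5-deficient progenitors, so 1 library lay within the range of pro-B cells and the other below it.

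The second experiment compared Pax5-deficient progenitors with Vav-Cre Pax5(fl/+) pro-B cells, and shares no library with the first. In this comparison 18 members rose, where 20.8% of all genes were higher, and 1 fell, where 19.1% were lower, with a median of 0.38 (1.30-fold) against 0.0047 over all genes. By edgeR 22 rose and 2 fell. Ifitm1 was 5.14 and 4.62 TPM in Pax5(fl/+) cells and 432 and 366 TPM in Pax5-deficient cells, a change of 6.32 (SE 0.38, adjusted p = 8.59e-05). Oas2 rose from 4.43 and 5.18 TPM to 13.3 and 12.8 TPM (log2 fold change 1.43, adjusted p = 0.0142). Isg15, here read with 100 nucleotides throughout, rose from 68.0 and 66.4 TPM to 139 and 137 TPM (1.04, adjusted p = 0.000591). Those groups stood apart by far more than their spread. Irf7 rose from 70.9 and 77.8 TPM to 143 and 123 TPM (0.84, adjusted p = 0.003), and Ifi44 from 9.95 and 9.38 TPM to 22.3 and 27.9 TPM (1.36, adjusted p = 0.000949). Zbp1 was the member that fell, from 20.0 and 18.6 TPM to 11.3 and 11.2 TPM (-0.78, adjusted p = 0.00238). Without replicate 1 or replicate 2 of Vav-Cre Pax5(fl/+) 11 members passed the test. Stat2, which rose in the first experiment, was 50.2 and 49.9 TPM against 44.8 and 48.3 TPM and did not pass the test in the second.

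Of the 26 members that rose in the first experiment and the 18 in the second, 15 were the same, 57.7% of the first list and 83.3% of the second. Over all genes 1784 were shared, 76.6% of 2330 and 66.3% of 2692. The shared members were Irf1, Irf7, Dhx58, Ifih1, Ifit1, Oas2, Oasl1, Oasl2, Gbp3, Ifitm1, Ifitm2, Ifitm3, Isg15, Ifi44 and Rtp4, so each functional group was represented, and Ddx58, Eif2ak2 and Parp9 passed the test in the second experiment alone. The difference between the 2 changes was tested as an interaction by limma alone, in which 0 members passed (9 at an unadjusted p under 0.05), where 0.23% of all genes did. The lowest adjusted p of a member was 0.259, for Oas3. For Ifitm1 the 2 changes differed by 0.06 (SE 0.29), whereas for Ifi44 the difference was -1.87 (SE 0.80) and for Irf7 -0.93 (SE 0.29). The difference, second minus first, was below 0 in 33 of 36 members and above 0 in Rsad2, Ifit2 and Ifitm1, where 45.7% of all genes were above 0. For Zbp1 a difference below 0 is a more negative change in the second experiment. That experiment differed from the first in read length and in the genotype of its controls. The labels also name an alternative gating for the progenitors of the second experiment alone. These differences cannot be told apart.

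**Figure D2:**
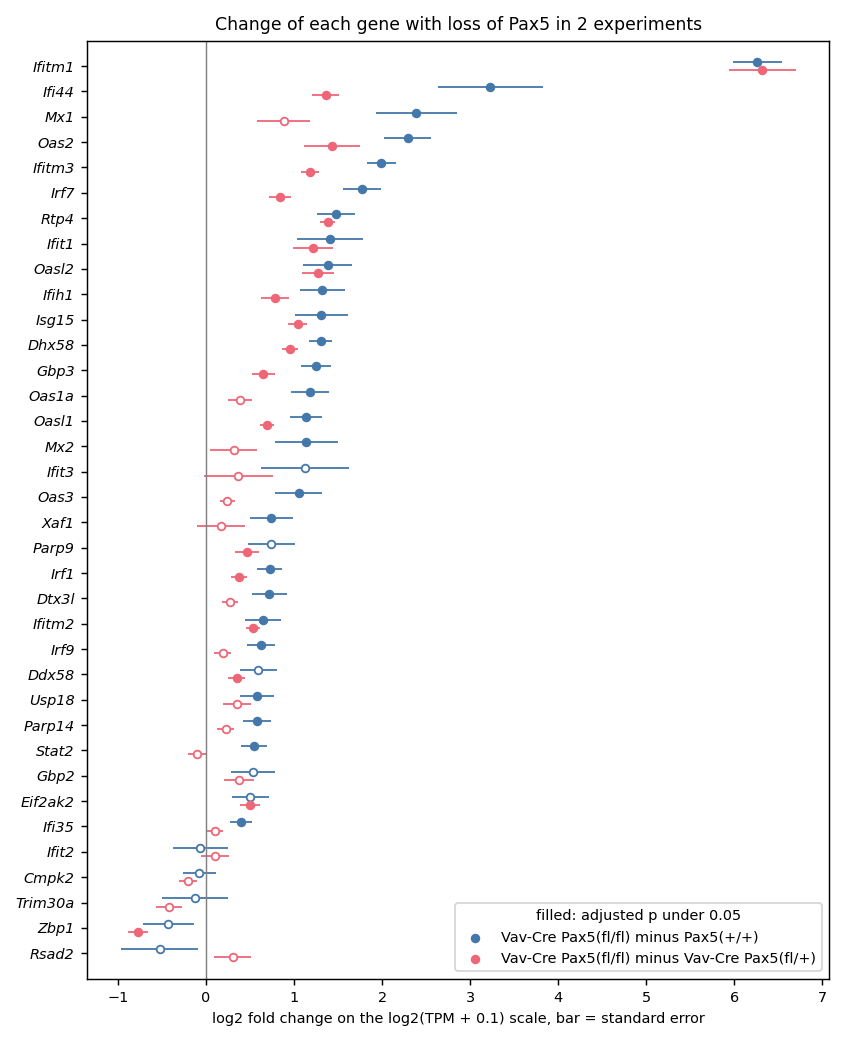
Log2 fold change of each of the 36 genes (vertical axis) on the log2(TPM + 0.1) scale with loss of Pax5, in the first experiment (blue) and the second (red), with bars for the standard error and filled points for an adjusted p under 0.05. Ifitm1 lies beyond 6 in both, Zbp1 below 0 in both, and most other members between 0 and 2.5.

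Markers of other cells moved with part of this result. The summed level of 12 markers of plasmacytoid dendritic cells, which are known for making type I interferon, was 969 to 1305 TPM in Pax5(+/+) libraries and 1463 and 2329 TPM in the first Pax5-deficient progenitors. All 12 were above 1 TPM in at least 1 library of each group, and 8 rose and 1 fell. Siglech, a surface receptor of these cells, was 0.551 to 13.9 TPM and 70.6 to 195 TPM. In the second experiment the sum was 1009 and 967 TPM in Vav-Cre Pax5(fl/+) cells and 954 and 818 TPM in Pax5-deficient cells. There 9 and 11 markers were above 1 TPM in at least 1 library of the group, and of 11 markers tested 8 rose and 3 fell. Siglech was 0.0564 to 0.385 TPM and 17.3 to 23.5 TPM, and no marker of the list was at 0 throughout a group. Bst2, Irf8 and Tlr7 of this list also stand in the interferon pathway lists used below, so the markers are not separate from that pathway. Bst2 changed by 1.88 in the first experiment and 0.895 in the second, Tlr7 by 3.81 and 2.98, and Irf8 by 1.05 and -0.486. The 14 granulocyte and macrophage markers summed to between 615 and 4629 TPM in the first Pax5-deficient libraries and between 819 and 6993 TPM in Pax5(+/+). In the second experiment they summed to between 469 and 856 TPM in Pax5-deficient cells and between 178 and 242 TPM in Vav-Cre Pax5(fl/+) cells. Of 13 tested there, 10 were higher and 1 was lower. Their part in the changes of the members was not tested.

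The paired domain alone, in Vav-Cre Pax5(Prd/fl) progenitors, was compared with Pax5-deficient progenitors of the same experiment. None of 36 members passed the test in either direction (limma, 8 at an unadjusted p under 0.05, 0 by edgeR), where 1.97% of all genes did. Ifitm1 was 156 and 385 TPM in Pax5(Prd/fl) cells, and the 2 libraries stood on either side of the lowest Pax5-deficient value. Oas2 was 37.0 and 17.5 TPM against 13.3 and 12.8 TPM, and its difference of 0.96 (SE 0.32) had an adjusted p of 0.19. Irf7 was 134 and 109 TPM and Isg15 135 and 111 TPM, where neither group of Isg15 overlapped the other. Without replicate 2 of Pax5(Prd/fl) 6 members passed, 5 of them higher.

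The C-terminal deletions were compared with Pax5(+/+) to learn which changes of Pax5 loss follow from losing either domain. The hemizygous and homozygous comparisons share the Pax5(+/+) libraries, so each is given with its own values. With CRD1 and CRD2 both deleted, few members changed, and Ifitm1 stood out. In Pax5(DCRD1,2/-) cells 5 members rose, where 7.96% of all genes did, and 2 fell, where 12.3% did. Ifitm1 was 268 and 189 TPM (log2 fold change 4.78, SE 0.30, adjusted p = 3.72e-06), the single call of the 7 that held under all 22 alternatives. Gbp3, a guanylate-binding GTPase, was 34.9 and 37.1 TPM against 17.6, 13.02, 16.4, 19.9 and 13.8 TPM in Pax5(+/+), a rise of 0.99. Oas2 rose by 1.18 to 12.5 and 10.7 TPM, Ifitm3 by 0.60 to 300.0 and 307 TPM, and Dhx58 by 0.55 to 65.5 and 64.8 TPM. Rsad2 was 3.07 and 2.88 TPM in Pax5(DCRD1,2/-) cells, below all 5 Pax5(+/+) libraries, a change of -2.17 (SE 0.48, adjusted p = 0.00885). Without Pax5(+/+) replicate 3, replicate 4 or Pax5(DCRD1,2/-) replicate 1, 4 members passed.

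Zbp1 went the other way in all C-terminal groups that lacked CRD1 except 1. It was 18.4, 20.0, 30.1, 28.3 and 17.6 TPM in Pax5(+/+) cells. It was 5.30 and 10.47 TPM in Pax5(DCRD1/-), 9.40 and 7.98 TPM in Pax5(DCRD1,2/-) and 8.08 and 6.21 TPM in Pax5(DCRD1,2/DCRD1,2) cells, all below the lowest Pax5(+/+) library. Its log2 fold changes were -1.95 (adjusted p = 0.00313), -1.74 (adjusted p = 0.00295) and -2.03 (adjusted p = 5.24e-05). In Pax5(DCRD1/DCRD1) cells, read with 50 nucleotides like the lower 3 Pax5(+/+) libraries, Zbp1 was 19.2 and 16.0 TPM and did not pass the test.

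In Pax5(DCRD1/-) cells 2 members rose, where 3.85% of all genes did, and 2 fell, where 4.66% did. Ifitm1 rose by 1.21 to 18.5 and 19.3 TPM, and Gbp3 by 0.69 to 26.1 and 32.9 TPM. Usp18 fell by 1.13 (SE 0.21, adjusted p = 0.00717), with 15.8 and 20.4 TPM against 24.9, 18.4, 39.9, 38.9 and 16.0 TPM in Pax5(+/+), where the groups overlapped before read length was taken into account. No rise was called without Pax5(+/+) replicate 3 or 4, or without Pax5(DCRD1/-) replicate 1 or 2, when 1, 2, 1 and 2 members fell in that order. Compared directly, Pax5(DCRD1,2/-) cells were higher than Pax5(DCRD1/-) cells for 2 members, where 0.594% of all genes were, namely Ifitm1 by 3.57 (SE 0.30, adjusted p = 0.000315) and Ifitm3 by 0.92 (SE 0.18, adjusted p = 0.0267). Leaving out any of the 4 libraries of that comparison left 1 call. In Pax5(DCRD2/-) cells no member passed (limma, 3 at an unadjusted p under 0.05, 0 by edgeR), where 0.513% of all genes did.

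The homozygous CRD1 deletion was read with 50 nucleotides, so its counts lean on the read length term. In Pax5(DCRD1/DCRD1) cells 12 members rose and none fell, where 2.69% of all genes were higher and 3.29% lower (13 rose and 0 fell by edgeR), with a median of 0.52 against -0.06 over all genes. Oas2 was 16.0 and 13.3 TPM, above all 5 Pax5(+/+) libraries (log2 fold change 1.60, SE 0.28, adjusted p = 0.00846). Gbp2 was 72.1 and 69.4 TPM against 36.03, 35.7, 30.8, 55.3 and 22.4 TPM (1.20, adjusted p = 0.0284), and Gbp3 33.5 and 33.7 TPM (1.19, adjusted p = 0.00768). The 2 GTPases thus lay above every Pax5(+/+) library. Irf7 rose by 1.03 to 91.6 and 72.7 TPM, Irf1, the factor that acts downstream of type II interferon, by 0.66 to 160 and 164 TPM, and Isg15 by 1.39 with overlapping groups. The remaining calls were Ifitm3, Oas3, Rtp4, Oas1a, Oasl1 and Dhx58, with changes between 0.46 and 1.10. No call held under all 20 alternatives. Without either Pax5(DCRD1/DCRD1) library 0 members passed, and without Pax5(+/+) replicate 2, 7 did. With libraries of 50 nucleotides alone 7 members rose, and with read length left out 5 passed. Natural killer cell markers summed to 74.8 and 71.1 TPM against 24.5 to 44.4 TPM in Pax5(+/+), with 2 of 4 tested higher and 0 lower, and 6 of 12 plasmacytoid dendritic cell markers were lower and 0 higher. Their part in the changes was not tested.

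In Pax5(DCRD1,2/DCRD1,2) cells 3 members rose, where 8.93% of all genes did, and 3 fell, where 13.3% did. Ifitm1 was 165 and 180 TPM (log2 fold change 4.39, SE 0.67, adjusted p = 0.00153). Oas2 rose by 1.26 to 14.1 and 10.7 TPM and Gbp3 by 1.13 to 38.5 and 40.9 TPM. Usp18 (-1.27), Stat2 (-0.50) and Zbp1 fell. The raw values of Usp18 overlapped between the groups, and the call of Stat2 was lost in 10 of 20 alternatives. Of the 6 calls, that of Zbp1 alone held under all 20 alternatives. In Pax5(DCRD2/DCRD2) cells no member passed (limma, 8 at an unadjusted p under 0.05, 0 by edgeR), where 0.0447% of all genes did, although 34 of 36 changes were above 0 and the median was 0.36. Its 2 libraries disagreed for some members. Rsad2 was 46.0 and 10.1 TPM and Ifitm1 27.1 and 3.71 TPM, and the sum of granulocyte and macrophage markers was 9397 and 688 TPM in the same order, whose part in the spread was not tested. Without replicate 2 of that genotype 2 members rose.

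**Figure D3:**
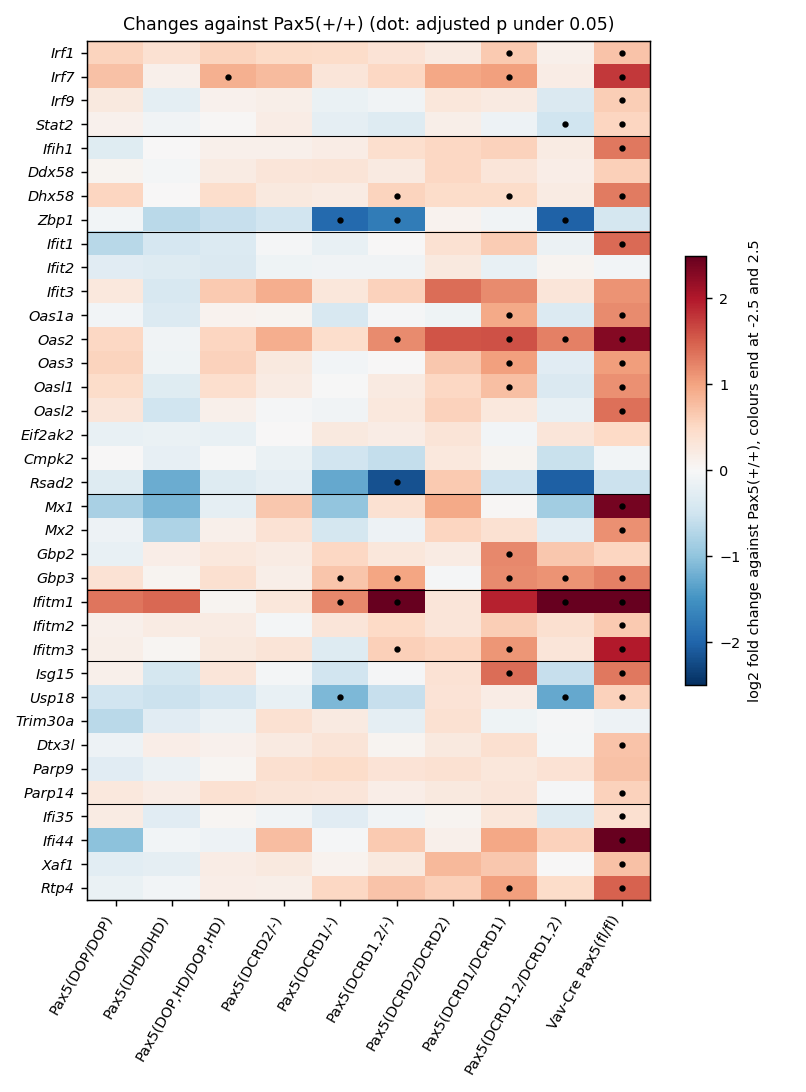
Log2 fold change against Pax5(+/+) of each gene (vertical axis, grouped by role) in each genotype of the first experiments (horizontal axis), as colour that ends at -2.5 and 2.5, with a dot for an adjusted p under 0.05. The last column, for Pax5-deficient progenitors, holds 26 dots, against 12 in Pax5(DCRD1/DCRD1) and 7 or fewer elsewhere, and the columns share their Pax5(+/+) libraries.

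Pax5-deficient progenitors and Pax5(DCRD1,2/-) cells were both sorted with that other gate, and a contrast between them was added after the data were seen. Their read lengths differed, so with that term the contrast is not direct. It is the difference between their changes from different Pax5(+/+) libraries, each of the same read length. All 36 such differences were above 0, with a median of 0.82 (1.76-fold) against 0.07 over all genes. The median of the members was 0.44 with read length left out. With the term 1 member passed the test, where 1.12% of all genes were higher. That member was Ifitm3, at 543 and 382 TPM against 300.0 and 307 TPM. Its changes from Pax5(+/+) differed by 1.39 on the log2 scale (limma with read length as a term, SE 0.24, adjusted p = 0.0186). Ifitm1, at 654 and 422 TPM against 268 and 189 TPM, did not pass. The count of calls was 0 without Pax5-deficient replicate 1, without Pax5(+/+) replicate 3 or 4 and without either Pax5(DCRD1,2/-) library, while 2 passed without Pax5(+/+) replicate 1 or 2, which enter through the read length term.

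Few of these genes changed with deletion of the central parts of Pax5. No member passed in Pax5(DOP/DOP) cells (limma, 9 at an unadjusted p under 0.05, 1 by edgeR), where 0.485% of all genes did. None passed in Pax5(DHD/DHD) cells (9 at an unadjusted p under 0.05, 0 by edgeR), where 0.639% did. In Pax5(DOP,HD/DOP,HD) cells Irf7 rose, where 0.739% of all genes were higher, from 49.7 and 54.7 TPM in the 2 Pax5(+/+) libraries of 100 nucleotides to 95.7 and 97.6 TPM (0.89, SE 0.12, adjusted p = 0.0224). Irf7 was 80.9 and 93.2 TPM in Pax5(DOP/DOP) cells, with an adjusted p of 0.0562, and 62.2 and 52.1 TPM in Pax5(DHD/DHD) cells. Leaving out any 1 of the 8 libraries ended the call in Pax5(DOP,HD/DOP,HD) cells. Ifitm1 was 20.7 and 20.5 TPM in Pax5(DOP/DOP), 31.8 and 15.2 TPM in Pax5(DHD/DHD) and 5.44 and 13.1 TPM in Pax5(DOP,HD/DOP,HD) cells, values that did not pass the test.

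The Ifitm family separated by member across all groups. Ifitm2 stayed between 333 and 841 TPM in every B lineage library and Ifitm3 between 98.2 and 543 TPM. Ifitm1 ran from 3.71 to 654 TPM. In pro-B cells with Pax5 or with CRD1 or CRD2 deleted alone it was the lowest of the 3, and in the Pax5-deficient progenitors of the second experiment, at 432 and 366 TPM, it exceeded Ifitm3, at 333 and 300.3 TPM. In LMPP cells Ifitm1 was 836 and 875 TPM, in libraries that were aligned and counted differently and were not tested against those of the B lineage.

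**Figure D4:**
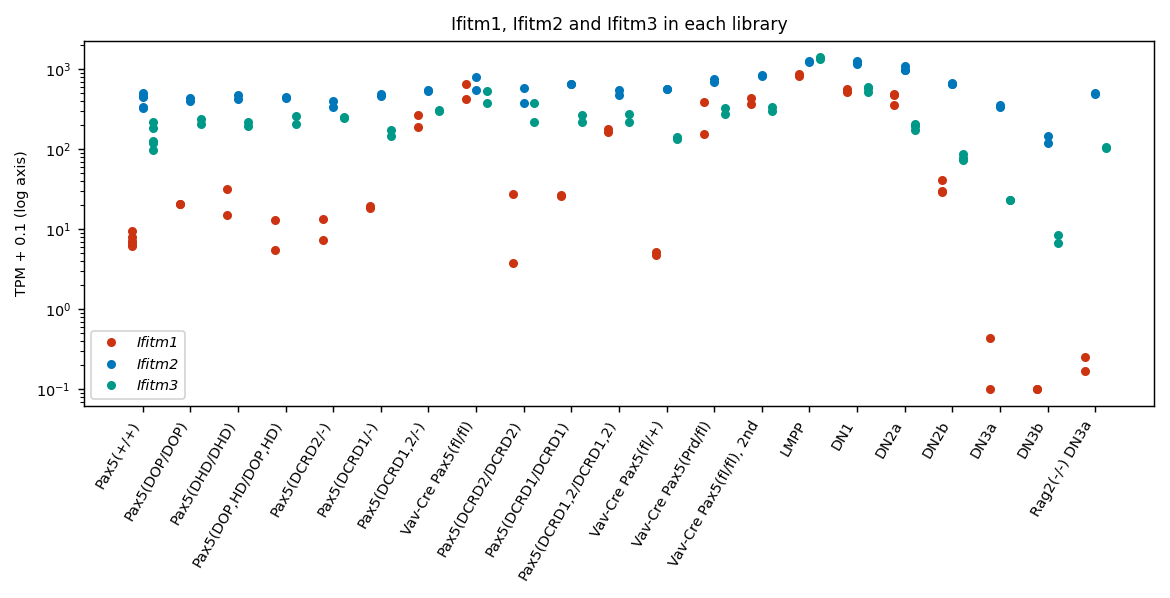
TPM + 0.1 on a log axis for Ifitm1 (red), Ifitm2 (blue) and Ifitm3 (green), with a point per library in each group of the B and T lineages. Ifitm1 is at most 31.8 TPM in pro-B cells that keep CRD1 or CRD2, at least 156 TPM without both domains or without Pax5, and at most 0.334 TPM in DN3a and DN3b cells.

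Through the T lineage the genes were high in LMPP and DN1 cells, fell at DN2a, rose in part at DN3a and fell almost as a whole at DN3b. The average over all members on the log2 scale was 5.14 and 5.25 in LMPP, 4.82 to 4.97 in DN1, 4.09 to 4.24 in DN2a, 4.00 to 4.21 in DN2b, 4.25 and 4.26 in DN3a, and 2.01 and 2.11 in DN3b. The ranges of DN2a, DN2b and DN3a touch or lie close together, and the others are apart. By group mean 18 members were highest in LMPP, 5 in DN1 and 13 in DN3a, and 35 were lowest in DN3b, with Ifit2 lowest in DN1. Steps between stages were tested within 1 model of the 17 libraries. Granulocyte and macrophage markers summed to 2536 and 2659 TPM in LMPP, 1987 to 2260 TPM in DN1, 540 to 563 TPM in DN2a, 53.5 to 72.4 TPM in DN2b, 50.7 to 57.0 TPM in DN3a and 1.08 to 3.42 TPM in DN3b. The plasmacytoid dendritic cell list stood between 570 and 794 TPM up to DN3a and between 370 and 407 TPM in DN3b, where Siglech was at 0, and the part of either list in the changes was not tested.

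From LMPP to DN1 10 members fell, where 11.9% of all genes did, and none passed higher. Ifitm3 was 1364 and 1411 TPM in LMPP and 518, 589 and 598 TPM in DN1, a fall that no overlap obscured (-1.29, SE 0.12, adjusted p = 3.55e-06). Gbp3 fell by 0.95 on the log2 scale and Ifit2 by 0.94. Without LMPP replicate 1, 4 members fell.

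From DN1 to DN2a 24 members fell, where 22.9% of all genes did, and Gbp3 rose by 0.54, where 10.9% did. All genes together shifted by -0.18 at this step, and the median member by -0.62. Oas3 was 51.1, 48.3 and 44.6 TPM in DN1 and 10.2, 7.95 and 14.4 TPM in DN2a (-2.18, SE 0.21, adjusted p = 5.65e-06). Oasl2 went from between 39.3 and 45.6 TPM to between 7.44 and 11.6 TPM, a change of -2.11. Irf7 went from 70.5, 84.2 and 79.7 TPM to 25.8, 25.1 and 25.9 TPM (-1.60, SE 0.14, adjusted p = 2.28e-06). The oligoadenylate synthetase family and the amplifying factor thus left their DN1 range at a single step. After scaling by the median of ratios 18 fell and 2 rose, and 14 fell without 1 of the 2 DN1 libraries that share the replicate number 2.

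From DN2a to DN2b 5 members fell, where 8.43% of all genes did, and 2 rose, where 9.8% did. Ifitm1 was 489, 474 and 357 TPM in DN2a and 29.0, 41.2 and 30.4 TPM in DN2b (-3.71, SE 0.37, adjusted p = 9.64e-06). Zbp1 rose from 6.84, 7.72 and 5.69 TPM to 16.4, 16.5 and 18.5 TPM (1.34, SE 0.15, adjusted p = 2.79e-05). The groups did not overlap for either gene, and without DN2a replicate 2 12 members passed, 6 in each direction.

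From DN2b to DN3a 16 members rose, where 31.4% of all genes did, and 7 fell, where 14.4% did. All genes shifted by 0.27 and the median member by 0.34, so the rise of the group as a whole is near that of all genes, and after scaling by the median of ratios 13 rose and 8 fell. Zbp1 went on to 74.5 and 68.6 TPM (2.06, SE 0.17, adjusted p = 8.8e-07). Ifih1 rose from 8.91, 6.76 and 9.30 TPM to 21.5 and 23.1 TPM, and Dtx3l from 90.3, 67.8 and 66.9 TPM to 163 and 193 TPM. Ifitm3 fell to 23.3 and 23.0 TPM (-1.78, adjusted p = 1.57e-07), and Ifitm1 was listed at 0 in 1 DN3a library and at 0.334 TPM in the other. Of the 4 sensors Zbp1, Ifih1 and Ddx58 rose at this step, and Dhx58 (0.32, adjusted p = 0.0613) did not pass the test, while all 3 Ifitm genes fell.

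From DN3a to DN3b, the step at which cells pass selection for a rearranged T cell receptor beta chain, 34 of 36 members fell, where 39.2% of all genes did, and none rose, where 14.2% did. The median member changed by -2.21 (4.61-fold) against -0.41 over all genes, and 35 of 36 lay below that all-gene median. With scaling by the median of ratios 34 fell, with a median of -1.92 against -0.15. Of the 34 calls, 33 held under all 25 alternatives, and leaving out any 1 of the 17 libraries gave 33 to 35. Zbp1 went from 74.5 and 68.6 TPM to 5.25 and 4.59 TPM (-3.84, SE 0.19, adjusted p = 3.97e-09). Gbp2 went from 51.4 and 55.4 TPM to 5.98 and 4.83 TPM (-3.29, SE 0.17, adjusted p = 7.45e-09), and Ifit1 from 7.68 and 8.26 TPM to 0.469 and 0.581 TPM (-3.70). None of these groups overlapped. Ifi44 went from 4.27 and 3.78 TPM to 0.0372 and 0 TPM, and its change depends on the pseudocount, with -5.14 at 0.1 and -2.30 at 1. The signalling factors fell too, Irf7 from 39.6 and 28.1 TPM to 7.09 and 8.24 TPM and Irf9 from 78.4 and 73.4 TPM to 13.2 and 18.9 TPM. The exceptions were Ifit2, at 7.62 and 7.66 TPM and then 9.38 and 7.63 TPM, and Ifitm1, near or at 0 in both.

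**Figure D5:**
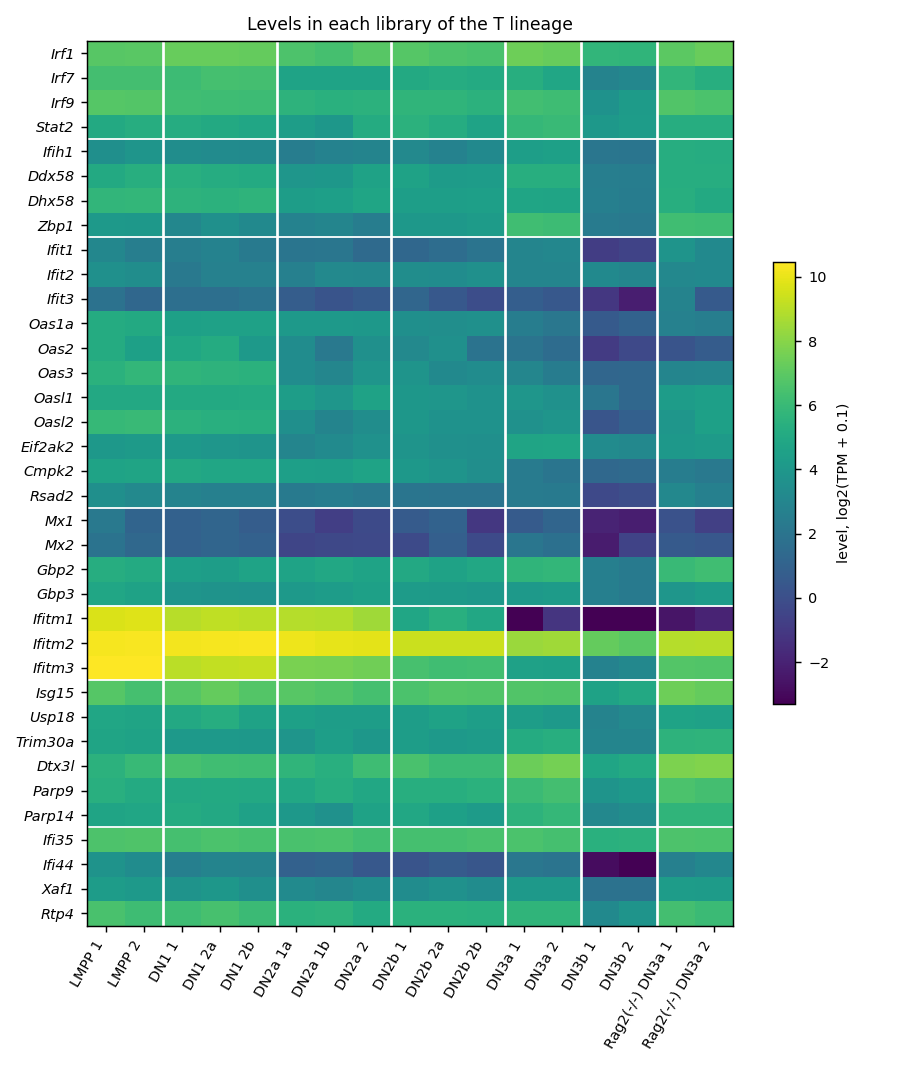
Level of each gene (vertical axis, grouped by role) in each T lineage library (horizontal axis), as log2(TPM + 0.1) in colour. The DN3b columns have the lowest group mean for 35 genes, all but Ifit2, and the 3 Ifitm genes darken from LMPP to DN3b.

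In DN3a cells without Rag2, which cannot pass that selection, the average over all members was 4.41 and 4.49 on the log2 scale. Against wild type DN3a cells 6 members were higher, where 6.91% of all genes were, and 2 were lower, where 19.5% were. All genes shifted by -0.18 in this comparison, and after scaling by the median of ratios 12 were higher and 1 lower. Ifitm3 was 108 and 104 TPM against 23.3 and 23.0 TPM (2.19, SE 0.13, adjusted p = 6.47e-07). Ifih1, a sensor of long double-stranded RNA, was 38.2 and 37.1 TPM against 21.5 and 23.1 TPM, and Isg15 was 171 and 146 TPM against 106 and 101 TPM. Mx2, at 1.396 and 1.26 TPM against 4.12 and 3.33 TPM, was lower (-1.42, adjusted p = 0.041). Counts of calls fell to 4 without either wild type DN3a library, 5 without DN1 replicate 1 and 2 without Rag2(-/-) replicate 1, and Ifitm3 and Ifitm2 alone held under all 25 alternatives.

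The rest of the interferon pathway was read from lists of 110 genes, of which 108 were in the B lineage tables and 104 in the T lineage tables. Transcripts of the interferons themselves were near absent: of 21 interferon genes 10 were at 0 in all 31 B lineage libraries and none exceeded 1 TPM, with Ifnab highest at 0.953 TPM. In the T lineage 11 of 19 were listed at 0 and Ifng alone exceeded 1 TPM, at 9.86 TPM in 1 of 2 DN3a libraries and 0.0776 TPM in the other. Among 83 pathway genes tested in the first experiment of Pax5 loss 34 rose and 4 fell (41.0% and 4.82%, against 17.1% and 14.6% of all genes). Among 81 in the second 26 rose and 13 fell (32.1% and 16.0%, against 20.8% and 19.1%). Receptor chains were part of this. Ifngr1 rose by 1.77 (adjusted p = 1.59e-06) in the first experiment and by 1.48 (adjusted p = 0.000121) in the second, Ifnar1 by 0.90 and 0.51, and Ifnar2 by 0.99 and 0.67. Ifngr2 was lower by 0.30 in the second alone, and of the 5 kinases and signal transducers 0 rose in either while Jak2 and Stat3 fell in the second. Ifngr1 also passed the test as higher in Pax5(DCRD1/-) (0.757), Pax5(DCRD1,2/-) (1.04), Pax5(DCRD1/DCRD1) (0.792) and Pax5(DCRD1,2/DCRD1,2) cells (0.925). Ifnar1 did in Pax5(DCRD1/-) (0.68) and Pax5(DCRD1,2/DCRD1,2) cells (0.439). No receptor chain passed in Pax5(DCRD2/-) or Pax5(DCRD2/DCRD2) cells. In Pax5(DCRD1/DCRD1) cells 14 of 82 pathway genes rose and 2 fell (17.1% and 2.44%, against 2.69% and 3.29% of all genes).

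From DN3a to DN3b 65 of 81 pathway genes fell and 2 rose (80.2% and 2.47%, against 39.2% and 14.2% of all genes). All 5 kinases and signal transducers fell, as did 4 of 5 receptor chains tested, with Ifngr1 at -3.32 (adjusted p = 8.02e-10).

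Members with and without the response element core were also set side by side, as a description. With loss of Pax5 in the first experiment the 15 members with a match had a median change of 1.05 and the 12 without one 0.73, and in the second experiment 0.38 and 0.32. From DN3a to DN3b the medians were -1.89 and -2.10. The gene with the widest change over all groups, Ifitm1, was among those with no match in its window.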

How the data were processed

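For the B lineage libraries the authors cut reads to 50 nucleotides, used STAR 2.4.2a with the GRCm38/mm10 genome and Rsubread for reads per RefSeq gene, and deposited TPM. The deposited raw counts of 2 samples were used only to imply gene lengths, from which reads were recovered as whole numbers in 100% of values tested, and 6 further count columns were not used. In 8 tables without gene names genes were assigned by row order. For Pax5(+/+) replicate 3, raw counts deposited with Pax5(DCRD2/DCRD2) replicate 1 and the named TPM were 0 together on 25579 of 25579 rows. Gene lengths implied by that library and by Vav-Cre Pax5(fl/+) replicate 1 had 1 ratio within 1% on 10642 of 10642 rows tested. The other unnamed tables were not checked in these ways. For the T lineage libraries the authors used TopHat 1.4.1 on mm9 and deposited 2 TPM values per gene, whose difference is not given in the sources used here. Their mean was used, an entry of exactly 1 was read as 0, and no count test was possible.

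Tests used limma 3.58.1 in R 4.3.3 (lmFit, eBayes with trend, two-sided) on log2(TPM + 0.1), on genes that exceeded 1 TPM in some sample of the model, with Benjamini-Hochberg adjustment over all genes and a threshold of 0.05. Fold changes on that scale understate those of low genes. Models held the groups of each experiment, since TPM tables of the 2 lineages were made separately. The recovered reads were tested with edgeR 4.0.16 as an alternative, and scripts were tested on simulated data. Replicate libraries differed by more than counting noise. The 36 members, the pathway lists and the marker lists were chosen with earlier results of these data known. Every member is described by role, and full statistics were given to those with an adjusted p under 0.05 and the largest changes. The interaction of the 2 experiments used libraries of 50 nucleotides in the first and 100 in the second. Alternatives were another pseudocount, no filter, no trend, another scaling, another tool, read length left out, a replicate block and leaving out each library.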

Additional observations from a re-analysis of the deposited data

Results flagged for a closer look

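Irf9 in Pax5(+/+) replicate 5 was far from the other libraries of its group. It was 60.26 TPM, whereas the other 4 replicates lay between 86.0 and 93.4 TPM. This was the single member of 36 for which a Pax5(+/+) library stood apart in this way, and chance sets apart about 1 in 20 groups. Against Pax5-deficient progenitors the log2 change of Irf9 was 0.62 with replicate 5 (limma, adjusted p = 0.012) and 0.45 without it (adjusted p = 0.0178).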

How the results depend on the processing

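For members called in the main test, 4156 values under alternatives were counted. Of these 3692 kept their direction and side of the threshold, 464 kept their direction but lost the call and 0 reversed. Members not called in the main test were left out of this count. Counts of members that passed moved by over 1.5 times as follows. With edgeR 1 passed in Pax5(DOP/DOP). In 1 model of 25 samples 1 passed in Pax5(DOP/DOP), 2 in Pax5(DOP,HD/DOP,HD) and 8 in Pax5-deficient against Pax5(DCRD1,2/-) cells. Without a trend of the spread 0 passed in Pax5(DOP,HD/DOP,HD), 2 in Pax5(DCRD1/-), 1 in Pax5(DCRD1,2/-) against Pax5(DCRD1/-) and 7 in Pax5(DCRD1/DCRD1). With no filter on low values 2 passed in Pax5(DCRD1/-) and 5 in Rag2(-/-) DN3a cells, and with scaling by the median of ratios 13 in the latter. With read length left out 11 passed in Pax5(DCRD1,2/-), 1 in Pax5(DCRD1,2/-) against Pax5(DCRD1/-), 5 in Pax5-deficient against Pax5(DCRD1,2/-) and 5 in Pax5(DCRD1/DCRD1) cells. With samples of the same read length alone, an alternative chosen after seeing the data, 16 passed in Pax5-deficient progenitors and 7 in Pax5(DCRD1/DCRD1). That alternative keeps the fold changes of the main model, so its counts move with the estimate of the spread and the genes tested. With same-numbered DN samples averaged 14 passed from DN1 to DN2a. Replicate numbers did not pair the samples (correlations of same-numbered samples from -0.111 to 0.126), and with the replicate number as a block 2 members passed in Pax5(DCRD1/-), 3 in Pax5(DCRD1,2/-) and 2 in Pax5-deficient against Pax5(DCRD1,2/-) cells. The cause of these moves was not tested. Leaving out each library in turn gave 0 in Pax5(DCRD2/-), Pax5(DHD/DHD), Pax5(DOP/DOP) and the deletion of both central parts, 1 to 4 in Pax5(DCRD1/-), 4 to 9 in Pax5(DCRD1,2/-), 16 to 27 in Pax5-deficient progenitors, 1 to 3 for Pax5(DCRD1,2/-) against Pax5(DCRD1/-), 0 to 2 for Pax5-deficient against Pax5(DCRD1,2/-), 0 to 2 in Pax5(DCRD2/DCRD2), 0 to 12 in Pax5(DCRD1/DCRD1), 4 to 7 in Pax5(DCRD1,2/DCRD1,2), 11 to 26 in the second experiment of Pax5 loss, 0 to 6 in Pax5(Prd/fl), 4 to 12, 15 to 26, 5 to 12, 20 to 24 and 33 to 35 at the T lineage steps in order, and 2 to 11 in Rag2(-/-) DN3a cells. A group left with 1 library was assumed to vary like the others. The median change of the members, near 0 in these comparisons, reversed in some settings. With scaling by the median of ratios it was -0.016 in Pax5(DCRD1/-), 0.0100 in Pax5(DCRD1,2/DCRD1,2) and -0.027 from DN2a to DN2b, and with edgeR 0.031 and with read length left out 0.18 in Pax5(DCRD1,2/DCRD1,2). With the replicate block it was -0.34 in Pax5(DCRD1/-) and -0.34 in Pax5(DCRD1,2/-). Over left-out libraries it ran from -0.069 to 0.35 in Pax5(DOP,HD/DOP,HD), from -0.19 to 0.34 in Pax5(DCRD1/-) and from -0.21 to 0.20 in Pax5(DCRD1,2/DCRD1,2). Depth limits Mx1, Ifit1 and Ifit3, the lowest members.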
